A study of Mus musculus with 8 samples.

Results

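The cytosolic ribosomal protein genes are the genes for the protein part of the ribosomes that translate messenger RNA outside the mitochondria. They were taken by symbol (Rpl or Rps followed by a digit, together with Rplp0, Rplp1, Rplp2 and Rpsa), without pseudogene symbols and without the S6 kinase genes. This gave 86 of the 23219 genes in the deposited table, of which 31 encode proteins of the small subunit, 43 proteins of the large subunit and 3 the stalk of the large subunit. Another 8 are paralogs of a ribosomal protein gene (Rpl3l, Rpl7l1, Rpl10l, Rpl22l1, Rpl36al, Rpl39l, Rps27l and Rps4y2), and Rps19bp1 matches the symbol rule although it encodes a binding partner of the Rps19 protein and not a ribosomal protein. The members lie on 19 chromosomes. Of the 86 genes, 83 passed the filter on low values and were tested, while Rpl10l, Rpl26 and Rpl39l were listed at 0 in all 8 libraries.

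A ribosome holds 1 copy of almost every core ribosomal protein, so cells make these proteins in matched amounts, and their messenger RNAs are short, abundant and regulated together at translation through a pyrimidine stretch at the 5′ end. The small subunit reads the messenger RNA, the large subunit joins the amino acids, and the stalk recruits the translation factors that drive each step. Many ribosomal protein genes carry small nucleolar RNAs in their introns, which guide the modification of ribosomal RNA, and mammalian genomes hold many processed copies (pseudogenes) of ribosomal protein messenger RNAs.

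RNA was measured in whole kidneys from mice aged 2 months, in 4 libraries per group. Controls were Mta2flx/flx, with both copies of Mta2 floxed, and mutants were Six2Cre Mta2flx/flx, so both groups share the floxed alleles and only the mutants carry the transgene. Mta2 encodes a subunit of the NuRD chromatin complex, and Six2 is a gene of nephron progenitors, so cells of other origins in these kidneys, such as vessels, stroma and blood, are not its expected targets. The comparison asks how the 2 groups differ in the whole organ, in which fewer cells of a type and less RNA per cell cannot be told apart. The labels name 4 kidneys per genotype and do not say that each came from another animal, so a p-value here reflects only how far these samples spread, which may be technical. Sequenced bases assigned to genes ranged from 164 to 468 megabases per library. Mta2 itself had 49.0, 35.1, 67.9 and 52.4 bases per megabase (BPM, a gene's bases in each megabase assigned to genes) in controls 3401, 3486, 3586 and 3587. It had 52.6, 33.1, 14.3 and 48.9 BPM in mutants 3382, 3387, 3487 and 3489. Only mutant 3487 and mutant 3387 lay below every control, and the log2 fold change of −0.56 (SE 0.40) did not pass limma's test (adjusted p = 0.857), so the whole-organ level of the targeted gene does not separate the groups.

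The starts of 65 of the 86 genes were matched to the RefSeq promoter table (GRCm38.p6). Windows from 60 bases before the start to 20 bases after it are shown for 5 genes on which the results turn: Rps2, with the lowest log2 fold change of all members, Rps3a1 and Rpl38, which are also among the lowest, Rpl35, which lay nearest to 0, and Rpl41, with the highest level per length. They lie at chr17:24720003-24720082 (plus strand), chr3:86142649-86142728 (minus), chr11:114668520-114668599 (plus), chr2:39005112-39005191 (minus) and chr10:128549149-128549228 (minus). Capitals mark the pyrimidine stretch TCTTTC, the ETS core CCGGAA and the YY1 core GCCATC, each searched on both strands, so that TCTTTC may appear as GAAAGA and CCGGAA as TTCCGG, and matches that overlap were each counted.
Rps2: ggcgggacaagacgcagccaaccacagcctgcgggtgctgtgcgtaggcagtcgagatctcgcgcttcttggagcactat
Rps3a1: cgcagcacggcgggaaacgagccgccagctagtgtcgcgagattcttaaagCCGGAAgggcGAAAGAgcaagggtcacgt
Rpl38: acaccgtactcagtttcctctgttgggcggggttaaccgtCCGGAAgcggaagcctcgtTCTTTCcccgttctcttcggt
Rpl35: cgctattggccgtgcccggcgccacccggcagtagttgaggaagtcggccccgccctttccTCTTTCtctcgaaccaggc
Rpl41: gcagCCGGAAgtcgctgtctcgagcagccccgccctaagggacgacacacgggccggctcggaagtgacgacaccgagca
Some genes have more than 1 annotated start, and a gene was counted once if any of its windows held the letters. CCGGAA was present for 20 of the 65 genes (30.8%), against 8.32% of 27025 genes counted in the same way. TCTTTC was present for 11 (16.9%, against 6.68%) and GCCATC for 4 (6.15%, against 4.07%). On the strand of the gene alone, TCTTTC was present for 10 (15.4%, against 3.70%). Only these exact letters were counted, anywhere in the window, so other pyrimidine runs near a start were not counted. The share of genes with a pyrimidine stretch at the 5′ end of the messenger RNA was therefore not measured. Rpl38 holds both CCGGAA and TCTTTC on the strand of the gene. Rps3a1 holds CCGGAA, but TCTTTC only on the opposite strand (shown as GAAAGA), so it is no pyrimidine run of the transcript. Rpl41 holds CCGGAA, Rpl35 holds TCTTTC, and the Rps2 window holds none of these letters. These matches are descriptions of the windows and were not compared with the fold changes.

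Together the members took 1.25, 1.54, 0.941 and 1.71% of all bases in controls 3401, 3486, 3586 and 3587. They took 1.56, 0.792, 0.780 and 0.726% in mutants 3382, 3387, 3487 and 3489. Mutants 3387, 3487 and 3489 lay below every control, while mutant 3382 lay above 3 of the 4 controls, so the groups overlapped. The means were 1.36% ± 0.338 in controls and 0.964% ± 0.397 in mutants (SD, n = 4 each), a difference of the size of the spread within a group. Without mutant 3382 the mutant mean was 0.766%. The share of small RNA genes, which include the small nucleolar RNAs, was 29.4, 34.3, 15.9 and 24.1% in the controls, against 26.4, 48.0, 52.6 and 25.9% among mutants in the same library order (exact 2-sided permutation p = 0.229, with 0.0286 the smallest that 4 against 4 can give). Of the bases outside small RNA genes, the members took 1.87% ± 0.563 in controls and 1.57% ± 0.468 in mutants (SD, n = 4). On that scale mutants 3387 and 3487 lay inside the control range, and only mutant 3489, at 0.979%, lay below the lowest control at 1.12%. The order of the libraries therefore depends on whether small RNA bases are counted in the total.

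**Figure D1:**
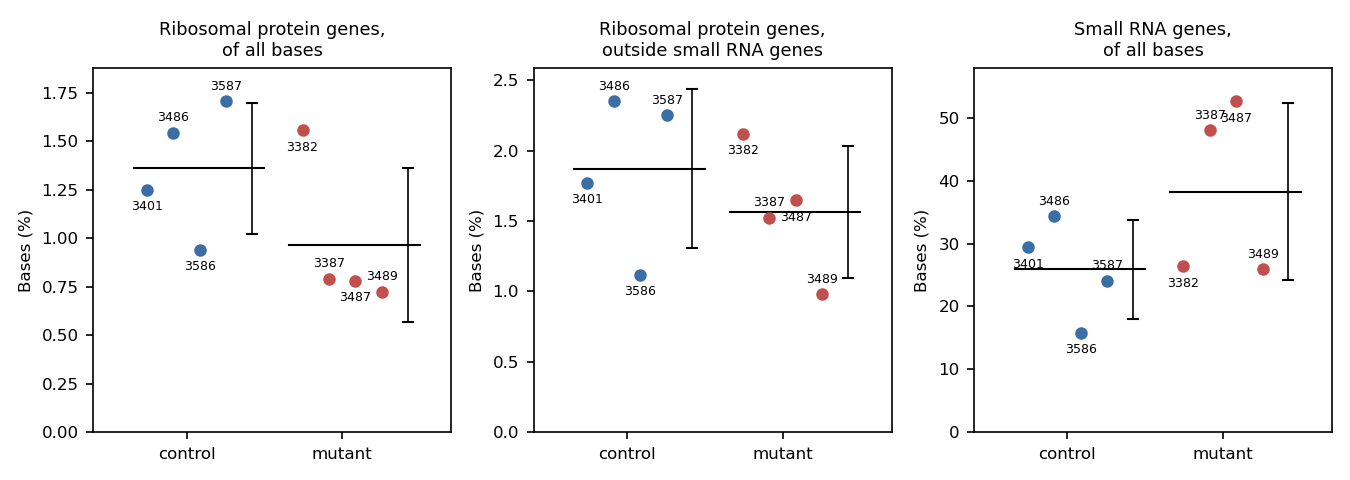
Share of bases taken by the 86 ribosomal protein family genes, of all bases (left) and of bases outside small RNA genes (middle), and by small RNA genes (right), in percent. Points are libraries with their numbers, the horizontal line is the group mean and the bar is 1 SD (n = 4). On the left, 3 mutants lie between 0.726 and 0.792% below all controls and mutant 3382 lies at 1.56%. In the middle, only mutant 3489 is below all controls.

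The balance between the subunits differed little between the groups. Small subunit genes took 0.570% ± 0.146 of the bases in controls and 0.412% ± 0.172 in mutants, and large subunit genes without the stalk took 0.584% ± 0.139 and 0.401% ± 0.161 (SD, n = 4). Their ratio was 0.975 ± 0.0555 in controls and 1.03 ± 0.0699 in mutants, so the difference was within the spread of the libraries.

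No member passed limma's test over all genes (0 of 83 tested at an adjusted p under 0.05, against 0.107% of the 13060 genes tested, with 0.0766% higher and 0.0306% lower). At an unadjusted p under 0.05 there were 15 members (18.1%), all with negative log2 fold changes, against 4.42% of all genes in that direction and 6.33% in either. In the table of the authors, as deposited, the p was under 0.05 for 12 members, each with a ratio under 1, against 6.05% of all tested genes in that direction. The log2 fold change was negative for 81 of the 83, against 71.6% of all tested genes, and its median was −0.61, against −0.23. By class the medians were −0.64 for the small subunit, −0.61 for the large subunit, −0.68 for the stalk and −0.35 for the 6 tested paralogs. With small RNA genes left out of the totals, the median of all genes moved to 0.03 and that of the members to −0.33, 74 of 83 were negative, against 46.8% of all genes, and 7 had an unadjusted p under 0.05, against 2.66% of all genes lower. With array weights, which give libraries unequal weight, 33 members had an unadjusted p under 0.05, against 5.78% of all genes lower, and 0 passed after adjustment, against 0.559%. The groups did not overlap for 3 members, all lower in mutants, which is 3.61% of the members against 3.40% of all genes, and no member had every mutant above every control, against 0.888% of all genes.

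**Figure D2:**
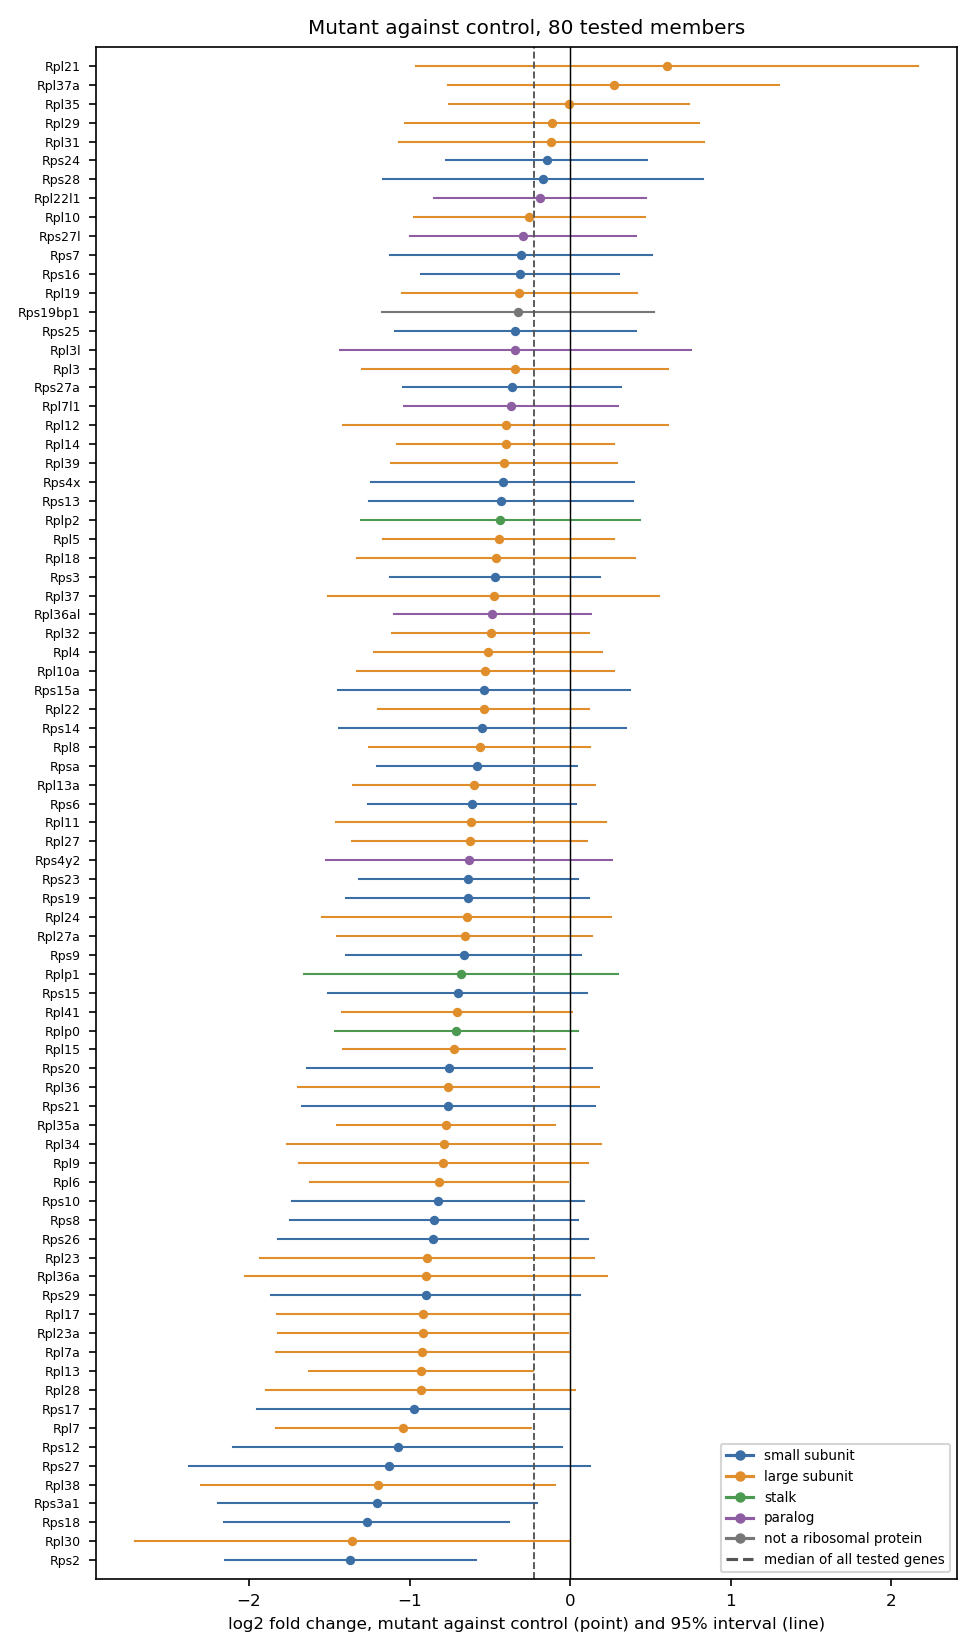
Log2 fold change of 80 tested members, mutant against control, from limma on log2(BPM + 1), with 95% intervals. Colours give the class, the solid line is 0 and the dashed line is the median of all tested genes. Values run from −1.37 (Rps2) to 0.60 (Rpl21), 78 of 80 points lie left of 0, and no member passed the threshold after adjustment.

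The members' levels also differed between libraries within each group. Against the control mean of each gene, the median member lay 0.79, 1.06 and 0.78 lower on the log2 scale in mutants 3387, 3487 and 3489, but 0.34 higher in mutant 3382. Mutants 3387, 3487 and 3489 were below all 4 controls for 60, 66 and 62 members, and mutant 3382 for 8. Mutant 3382 was above all 4 controls for 33 members, mutant 3487 for 2 and the other mutants for none. All 4 mutants were below all controls for 3 members, exactly 3 mutants for 45, and no mutant for 5. The controls also differed: the median member lay at −0.45 in control 3586 and at 0.35 in control 3587. Mutant 3382 exceeded the mean of the other 3 mutants for 78 of 83 members, by a median of 1.21 on the log2 scale. The 5 exceptions were Rps2, Rps18, Rps24, Rps27l and Rpl3l. Without mutant 3382, the members' median was −0.90 (all genes −0.38) and 56 of 82 tested members had an unadjusted p under 0.05, against 8.72% of all genes, but 0 passed limma's test after adjustment, against 0.125% of all genes.

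**Figure D3:**
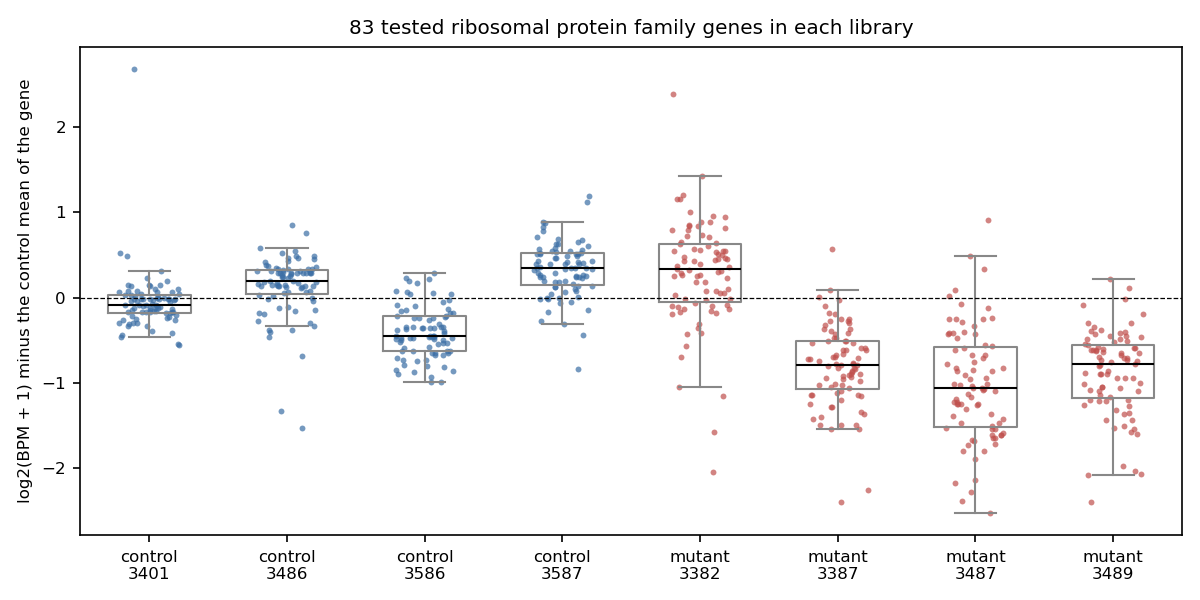
Log2(BPM + 1) of each of the 83 tested members minus its mean in the 4 controls, by library. Points are genes, boxes give the median and quartiles with whiskers of up to 1.5 box lengths. Mutants 3387, 3487 and 3489 centre between −1.06 and −0.78, while mutant 3382 centres at 0.34, close to control 3587 at 0.35.

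The summed levels of cell type markers also differed between the libraries. The summed level of 7 macrophage markers ranged from 103 to 190 BPM in controls and was 1447, 272, 189 and 751 BPM in mutants 3382, 3387, 3487 and 3489, and all 6 tested markers had positive log2 fold changes. The summed level of 4 fibroblast markers ranged from 187 to 256 BPM in controls and was 1377, 347, 132 and 589 BPM in the mutants, with 3 of 4 positive. Mutant 3382 was the highest library for both lists and also the mutant with the highest ribosomal protein share, whereas mutant 3489 was the second highest library for both lists and had the lowest ribosomal protein share, 0.726%. Mutant 3382 was also the highest mutant for thick limb, collecting duct, endothelial, lymphocyte and cycling cell markers (4097, 294, 153, 14.9 and 23.6 BPM). For proximal tubule and podocyte markers the highest mutant was 3489 (7803 and 159 BPM), and for erythrocyte markers it was 3487. The 4 measured erythrocyte markers, globins and the haem enzyme gene Alas2, summed to 2820 to 5219 BPM in controls and to 905, 1595, 2325 and 762 BPM in the mutants, with all 4 negative and 2 of them (Hba-a1 and Hba-a2, near-identical copies whose reads may be split) past limma's test. Of all tested genes, 71.6% had negative log2 fold changes and 0.0306% were called lower. T and B cell markers summed to 1.48 to 9.06 BPM in controls and to 5.25 to 14.9 BPM in mutants, near the bottom of the measured range. Proximal tubule markers summed to 5586 to 12944 BPM in controls and to 3779 to 7803 BPM in mutants, so the defining markers of kidney epithelium were present in every library. All 5 had negative log2 fold changes, with a median of −0.55. The 3 podocyte and 3 endothelial markers were negative too, with medians of −0.66 and −0.64. These medians were near the −0.61 of the ribosomal protein genes, while that of all tested genes was −0.23. The medians of 2 thick limb and 2 collecting duct markers were −0.15 and −0.16. The part of these cell types in the ribosomal protein values was not tested.

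Among small subunit genes all 31 log2 fold changes were negative, from −1.37 to −0.15, and 5 had an unadjusted p under 0.05 in limma. Of all tested genes, 71.6% were negative and 4.42% were lower at that p. Rps2, a protein at the entry of the messenger RNA channel, lies at chr17:24718116-24721929. It had 58.6, 69.1, 42.3 and 66.5 BPM in controls 3401, 3486, 3586 and 3587, and 18.9, 27.4, 12.1 and 36.1 BPM in mutants 3382, 3387, 3487 and 3489. Every mutant was below every control, mutant 3382 included. The log2 fold change of −1.37 (SE 0.37) was the lowest of all members and did not pass limma's test (adjusted p = 0.237, and 0.0430 to 0.814 over the alternatives). The authors' deposited table gives a ratio of 0.400 and a p-value of 0.00425 for Rps2.

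Rps18, a protein of the head of the small subunit, had 83.2, 221, 61.3 and 197 BPM in the controls and 28.9, 77.2, 39.9 and 70.95 BPM in the mutants. Here mutant 3382 was the lowest library, whereas it was the highest of all 8 for 33 members, and the groups overlapped through control 3586. Its log2 fold change was −1.27 (SE 0.43, limma adjusted p = 0.510). With the small RNA share of each library as a covariate, Rps2 (−1.24) and Rps18 (−1.56) passed limma's test, with adjusted p of 0.0430 and 0.0433, in a fit that called 3.75% of all genes and 0.559% lower.

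Rps3a1 had 113, 31.3, 90.7 and 128 BPM in the controls and 91.4, 31.1, 25.6 and 18.8 BPM in the mutants, so control 3486 stood with the low mutants. Its log2 fold change was −1.20 (SE 0.48).

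Rps6, the small subunit protein that S6 kinase phosphorylates, had 129, 144, 129 and 182 BPM in the controls and 136, 66.2, 90.7 and 97.9 BPM in the mutants, with a log2 fold change of −0.61 (SE 0.31). Rpsa, which is also known as a laminin receptor precursor, had 231, 265, 209 and 277 BPM in the controls and 234, 127, 137 and 173 BPM in the mutants, with −0.58 (SE 0.30). In both genes 3 mutants were below all controls and mutant 3382 was inside the control range. Rps19, which in humans is mutated in Diamond-Blackfan anaemia, had a mean of 93.2 ± 24.8 BPM in controls and 63.1 ± 33.6 in mutants (SD, n = 4). Rps27a, whose product is made as a fusion with ubiquitin, had 89.7 ± 28.1 and 68.2 ± 12.9 BPM. Neither gene passed limma's test (adjusted p = 0.836 and 0.881).

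Rps24 was among the members with the narrowest range. It had 378, 514, 261 and 417 BPM in the controls and 339, 357, 407 and 288 BPM in the mutants, so every mutant was inside the control range. The log2 fold change was −0.15 (SE 0.30). Over the 8 libraries the range of Rps24 was 0.97 on the log2 scale, against a median of 1.78 for the members and a maximum of 4.20 for Rpl21. Rps14 and Rps15 had log2 fold changes of −0.55 (SE 0.43) and −0.70 (SE 0.39), with mutant 3382 the highest library of all 8 for both, at 873 and 695 BPM. Rps28 and Rps29 were low in every library, with at most 2.59 and 2.39 BPM, and both were listed at 0 in mutant 3487.

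Among the 42 tested large subunit genes, 40 log2 fold changes were negative and 10 had an unadjusted p under 0.05 in limma, beside 71.6% and 4.42% (lower) of all tested genes. Rpl13 had 120, 138, 88.3 and 113 BPM in controls 3401, 3486, 3586 and 3587 and 99.5, 39.5, 52.7 and 58.6 BPM in mutants 3382, 3387, 3487 and 3489. Rpl7 had 208, 254, 206 and 278 BPM in the controls and 275, 82.9, 62.6 and 117 BPM in the mutants. In both genes mutant 3382 was inside the control range and the other 3 mutants were below it. Their log2 fold changes were −0.93 (SE 0.33) and −1.04 (SE 0.38), with limma adjusted p of 0.569 and 0.574.

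Rpl38, which in mice is needed for the translation of a group of Hox messenger RNAs, had 20.5, 21.96, 11.95 and 12.9 BPM in the controls. It had 24.6, 5.16, 2.55 and 4.78 BPM in the mutants, so mutant 3382 was the highest library and the other mutants were the lowest. Its log2 fold change was −1.20 (SE 0.53). Rpl30 was lower still in level, with 2.90, 3.06, 5.03 and 7.13 BPM in the controls and 10.7 and 0.513 BPM in mutants 3382 and 3487, and it was listed at 0 in mutants 3387 and 3489. Its log2 fold change of −1.36 (SE 0.65) thus rests on few bases and on libraries that disagree.

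Rpl5 and Rpl11, which together with a small ribosomal RNA bind and restrain Mdm2, had log2 fold changes of −0.44 (SE 0.34) and −0.62 (SE 0.40). Rpl5 had 231, 240, 134 and 308 BPM in the controls and 282, 143, 117 and 141 BPM in the mutants. Rpl11 had 51.97, 83.1, 37.8 and 74.7 BPM in the controls and 86.6, 33.5, 25.8 and 28.2 BPM in the mutants. Mutant 3382 was the highest mutant for both, within the control range for Rpl5 and above every control for Rpl11. Of the other mutants, 3487 lay below the lowest control for Rpl5, and all 3 lay below it for Rpl11.

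Only Rpl21 and Rpl37a had positive log2 fold changes, at 0.60 (SE 0.75) and 0.27 (SE 0.49), and both signs turn under an alternative: Rpl21 was −0.32 with array weights, and Rpl37a was −0.11 without mutant 3382. Rpl21 had 24.0, 0.359, 2.16 and 1.20 BPM in the controls and 19.4, 4.80, 2.60 and 1.94 BPM in the mutants. Single libraries of each group, control 3401 and mutant 3382, therefore held most of its signal. Rpl35 at −0.01 (SE 0.36), Rpl29 at −0.11 (SE 0.44) and Rpl31 at −0.12 (SE 0.45) lay nearest to 0, and their signs turned with the scaling. Rpl35, which sits near the exit of the peptide tunnel, had 76.7, 112, 67.0 and 125 BPM in the controls and 170, 92.5, 76.9 and 58.1 BPM in the mutants.

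The stalk is built from Rplp0, which anchors it to the large subunit, and the acidic proteins Rplp1 and Rplp2. Rplp0 had 810, 943, 621 and 1163 BPM in the controls and 1130, 501, 334 and 408 BPM in the mutants. Rplp1 had 306, 319, 292 and 918 BPM in the controls and 774, 226, 162 and 139 BPM in the mutants. Rplp2 had 53.7, 72.1, 40.7 and 79.2 BPM in the controls and 103, 41.5, 20.9 and 40.4 BPM in the mutants. All 3 genes were high in mutant 3382 and low in the other mutants, although mutant 3387 reached the lowest control for Rplp2. The log2 fold changes were −0.71 (SE 0.36), −0.68 (SE 0.47) and −0.43 (SE 0.41), and none passed limma's test (adjusted p = 0.807, 0.857 and 0.891).

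Among the paralogs, Rpl36al and Rpl22l1 had some of the narrowest ranges over the libraries. Rpl36al, an autosomal copy of X-linked Rpl36a, had 118, 160, 101 and 144 BPM in the controls and 96.5, 89.0, 97.3 and 85.1 BPM in the mutants. The groups did not overlap, and the gap between the lowest control and the highest mutant was 101 against 97.3 BPM. Its log2 fold change was −0.48 (SE 0.29, limma adjusted p = 0.844). Rpl36a itself had 10.7, 10.6, 4.82 and 14.5 BPM in the controls and 16.4, 4.23, 2.03 and 2.70 BPM in the mutants, with a log2 fold change of −0.90 (SE 0.54). The third gene without overlap was Rps4y2, a copy of Rps4x that the annotation now names Rps4l, with 6.86 to 14.1 BPM in controls and 4.26 to 6.82 BPM in mutants, where the gap was smaller than the spread of either group.

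Rps27l, a p53-responsive copy of Rps27, had 314, 350, 204 and 284 BPM in the controls and 136, 248, 396 and 210 BPM in the mutants. Mutant 3382 was its lowest library and mutant 3487 its highest, whereas mutant 3487 was the lowest library for 38 members. Rps27 had 13.7, 13.4, 6.96 and 20.1 BPM in the controls and 26.6, 1.89, 5.03 and 2.27 BPM in the mutants, with mutant 3382 the highest. Per kilobase of transcript the control level was 577 for Rps27l and 39.3 for Rps27. Of the 50-base words of the Rps27 transcript, 98.6% also occur in transcripts of other genes, against 22.4% for Rps27l, and whether this lowers the Rps27 value was not tested.

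Rpl22l1 had 120, 120, 70.3 and 141 BPM in the controls and 113, 107, 92.1 and 76.2 BPM in the mutants, so all mutants lay inside the control range. Rpl22 had 284, 358, 226 and 458 BPM in the controls and 318, 167, 215 and 205 BPM in the mutants, with 3 mutants below the lowest control. The log2 fold changes were −0.19 (SE 0.32) for Rpl22l1 and −0.54 (SE 0.32) for Rpl22. Rpl7l1, a protein of ribosome assembly, had −0.37 (SE 0.32). Rpl3l, a muscle form of Rpl3, had 0.813 to 4.87 BPM in controls and 0.560 to 5.53 BPM in mutants. Rpl10l and Rpl39l, known from the testis, were listed at 0 in all libraries, while their partners Rpl10 and Rpl39 had 61.8 ± 15.7 and 108 ± 19.7 BPM in controls (SD, n = 4).

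Levels of different genes are comparable only per length. The transcript used for the length was the shortest coding model in the annotation's basic set with a RefSeq messenger RNA record. Where no model had such a record, the shortest coding model of that set was used. On the scale of BPM per kilobase of this transcript, Rpl41, which encodes the shortest ribosomal protein, led the controls with 3709 ± 1158 (SD, n = 4). Rpl32 followed with 1395 ± 301, then Rps15 with 990 ± 320, Rplp1 with 919 ± 614 and Rps14 with 883 ± 370. Rpl41 exceeded Rpl32 beyond the spread of the libraries, whereas Rps15, Rplp1 and Rps14 did not differ beyond theirs. The median of 77 core members was 97.7. Rpl21, Rpl28, Rpl31, Rpl34, Rps15a, Rps28 and Rps29 lay between 2.41 and 4.99, far below that median, and Rps15a and Rps20 have unusually long transcript models (5179 and 3706 bases), which lowers their values.

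**Figure D4:**
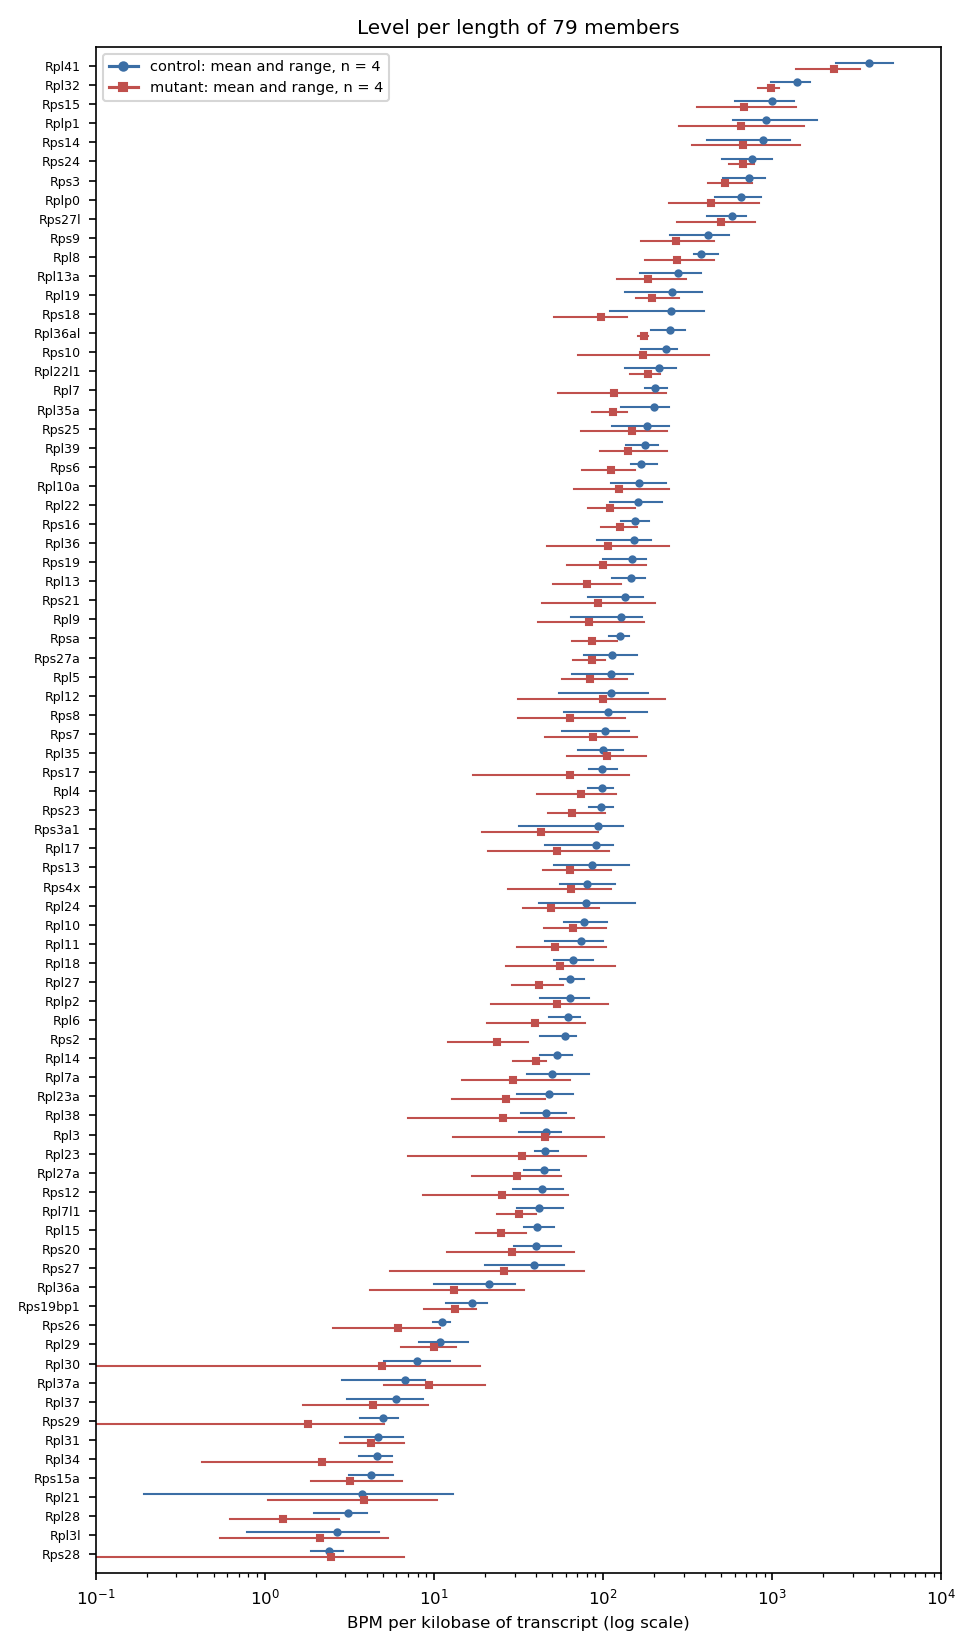
BPM per kilobase of transcript (log scale) for 79 tested members with an annotated transcript, ordered by the control mean. Circles are controls and squares mutants, with lines from the lowest to the highest library (n = 4 each). A line that reaches the left edge includes a library listed at 0. Rpl41 leads with 3709 in controls and Rps28 is lowest at 2.41.

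Reads of ribosomal protein messenger RNAs can match several places in the genome. The median core member shared 52.1% of its 50-base words with transcripts of other genes, while only 5.55% of 20343 protein-coding genes share 50% or more. Across the 77 core members, which share the same libraries, the shared percentage and the control level per length had a Spearman correlation of −0.03. The deposited table also lists 19 genes annotated as pseudogenes that share such words with 15 members, and 8 of these 19 held more bases in the controls than their member, a comparison that is not adjusted for length.

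Rpl26 was listed at 0 in all 8 libraries, for a reason that was not tested, although it is a core protein at the exit of the peptide tunnel. Its processed pseudogene Gm15772, which holds 60.6% of the Rpl26 words, had 63.3, 84.4, 130 and 439 BPM in controls 3401, 3486, 3586 and 3587 and 76.5, 42.01, 30.4 and 34.2 BPM in mutants 3382, 3387, 3487 and 3489. Among the mutants the pseudogene was highest in mutant 3382, as the median member was. Among the controls both were highest in control 3587, but the rest of the order differed. Control 3586 had the lowest median member (−0.45 on the log2 scale), whereas its 130 BPM of Gm15772 lay above controls 3401 and 3486. Which locus gave the reads of Gm15772 cannot be told apart. The log2 fold change of Gm15772 was −1.60, with a limma adjusted p of 0.320.

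Rpl37 had a control mean of 4.96 ± 1.90 BPM, and its processed copy Gm13826, now named Rpl37rt, had 124 ± 7.95 BPM (SD, n = 4). Gm13826 had 96.2, 60.3, 80.9 and 78.6 BPM in the mutants, all below its lowest control at 115 BPM. Rps15a had 21.9 ± 6.60 BPM in controls, while Rps15a-ps6 and Rps15a-ps4 had 205 ± 50.9 and 173 ± 46.8. Rpl31 had 4.92 ± 1.91 BPM and Rpl31-ps12 had 45.7 ± 8.22, and Rpl34 had 2.21 ± 0.444 BPM and Rpl34-ps1 had 11.3 ± 4.22. Rpl37, Rps15a, Rpl31 and Rpl34 are among the lowest members per length. For Rps15a that value is lowered by its long transcript model of 5179 bases, so its low place does not reflect its BPM alone. Whether reads of these members were assigned to the copies was not tested. The log2 fold changes of the copies were −0.66 for Gm13826, −0.53 for Rps15a-ps6, −0.61 for Rps15a-ps4, −0.76 for Rpl31-ps12 and −0.94 for Rpl34-ps1, and none passed limma's test.

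The small nucleolar RNAs inside ribosomal protein genes mostly had fold changes of the other sign from their hosts. The annotation places 58 such RNAs on the same strand within the span of 30 members, of which 33 are in the table and 32 were tested, in 23 hosts. Of the 32, 28 had a positive log2 fold change, with a median of 0.77, and all 32 lay above the value of their host. Of all 13060 tested genes, 3715 were positive, and the median was −0.23. The share of small RNA genes as a whole was 25.9% ± 7.89 in controls and 38.2% ± 14.1 in mutants (SD, n = 4). Whether small RNA genes outside the hosts had the same sign was not tested. Among the 32 RNAs, 1 passed limma's test, against 0.0766% of all tested genes called higher. Snord15a in Rps3 had 287, 254, 107 and 249 BPM in the controls and 395, 1326, 1340 and 983 BPM in the mutants, so every mutant was above every control. Its log2 fold change was 2.11 (SE 0.40, limma adjusted p = 0.0359). Rps3, its host, had 1335, 1506, 976 and 1721 BPM in the controls and 1450, 899, 884 and 800 BPM in the mutants, with −0.47 (SE 0.31).

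Snora7a in Rpl32 had 2650 to 7208 BPM in controls and 6445, 18840, 24626 and 13756 BPM in mutants 3382, 3387, 3487 and 3489, with a log2 fold change of 1.59 (SE 0.44, limma adjusted p = 0.240). Snord32a in Rpl13a had 1.29 (SE 0.41), beside −0.60 for its host. Only Snora62 in Rpsa (−0.52), Snora64 in Rps2 (−0.27), Snora33 in Rps12 (−0.17) and Snora52 in Rplp2 (−0.04) were negative. Hosts and other members had similar medians, −0.59 for the 30 hosts and −0.62 for the 53 other tested members. A small RNA and its host both enter the same total, so a larger small RNA share lowers the share of every other gene.

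**Figure D5:**
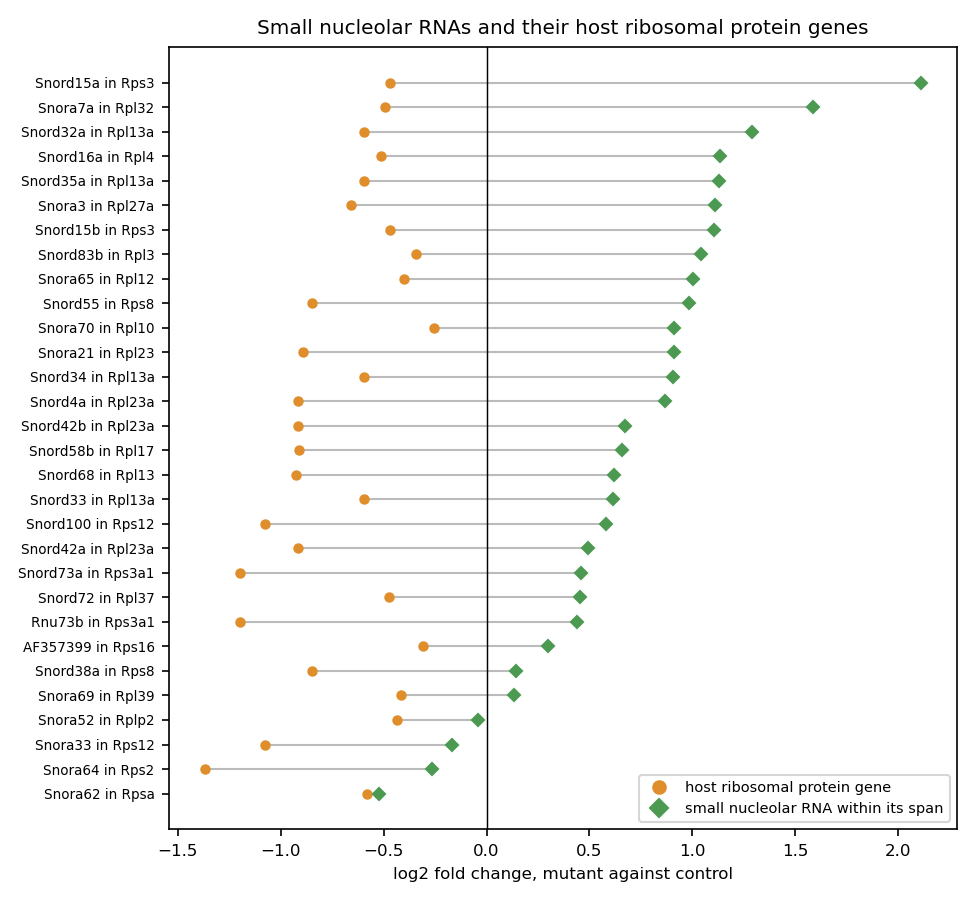
Log2 fold change, mutant against control, of 30 small nucleolar RNAs (diamonds) and of the ribosomal protein gene whose span holds each of them (circles). Every diamond lies right of its circle, 26 of 30 diamonds lie above 0, and only Snord15a (2.11) passed limma's test.

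Genes that work with the ribosomal proteins were measured in the same fit. In every list 0 of them passed limma's test, against 0.107% of all tested genes. Of the ribosomal protein genes outside the symbol rule, Fau, a ubiquitin-like fusion, had a log2 fold change of −0.50 (SE 0.33), and Gnb2l1, which encodes the scaffold Rack1, had −0.37 (SE 0.34). Of the 76 mitochondrial ribosomal protein genes, which are encoded in the nucleus, 70 were negative with a median of −0.45, and 9 had an unadjusted p under 0.05. Among all tested genes 71.6% were negative, the median was −0.23, and 6.33% had an unadjusted p under 0.05. Their summed level was 4159 to 5665 BPM in controls and 3202 to 4620 BPM in mutants, with mutant 3382 highest among the mutants. Mrpl30 had −1.15 (SE 0.38) and Mrpl33 had −1.02 (SE 0.37), with limma adjusted p of 0.492 and 0.572.

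The lists of translation factors, assembly machinery and related genes had medians from −0.12 to −0.48. These lay nearer to the median of all genes (−0.23) than that of the cytosolic members (−0.61) did. The median was −0.25 over 7 elongation factors, −0.35 over 41 initiation factors and cap regulators, −0.27 over 35 small subunit assembly factors and −0.35 over 35 large subunit assembly factors. It was −0.29 over 12 nucleolar modification factors and chaperones, −0.28 over 19 genes of RNA polymerase I, −0.12 over 19 upstream regulators and surveillance factors, and −0.48 over 8 factors that meet the nascent chain. At an unadjusted p under 0.05 there were 0, 0, 0, 1, 1, 2, 2 and 1 genes in these lists, in the same order. The share over all tested genes was 6.33% in either direction.

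The genes with the smallest p in each list had the following values, none past the threshold. Eef1a1, which delivers transfer RNAs, had −0.56 (SE 0.33) and Eef1b2, its exchange factor, −0.46 (SE 0.33). The initiation factor subunits Eif3m and Eif3j1 had −0.82 (SE 0.41) and −0.84 (SE 0.43). The assembly factors Mdn1, Pes1, Utp14a and Riok1 had −1.10 (SE 0.40), −0.91 (SE 0.47), −1.07 (SE 0.57) and −0.73 (SE 0.44). Nop10, a part of the pseudouridine-forming particles, had −0.70 (SE 0.29) and the helicase Ddx21 −0.64 (SE 0.46). Polr2f and Polr2k, subunits common to the nuclear RNA polymerases, had −1.05 (SE 0.43) and −1.07 (SE 0.45). The ribosome rescue factor Pelo had −0.92 (SE 0.40), Trp53 −1.11 (SE 0.52), and the nascent chain factors Naca and Tpt1 −0.99 (SE 0.39) and −0.69 (SE 0.37).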

How the data were processed

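Total RNA of 8 whole kidneys was sequenced after column purification with DNase, depletion of ribosomal RNA and library preparation with an Ion Total RNA-seq kit, per the labels' protocols. A single table came from the authors, giving 8 libraries, a ratio of group means and a p-value for 23219 genes. The unit of the deposited signal is not stated. All values (100%, tolerance 1e-06) were whole multiples of the smallest one in the same library, and so the signal was read as sequenced bases per gene plus 1, scaled by the authors to a total near 280 megabases. Numbers of reads are unknown, so no counting interval is given. Per the submitters' processing notes, bedtools and mm10 were used. For the aligner, the annotation and the handling of strand and multiply matching reads, the answer is not given in the sources used here.

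Values divided by 280 are BPM. The filter asked for 1 BPM or more in 4 libraries and left 13060 genes. These entered limma 3.58.1 (R 4.3.3, trend option, 2-sided) as log2(BPM + 1), and p-values were adjusted over all of them by Benjamini-Hochberg, with 0.05 as the threshold. Fold changes on this scale understate changes of low genes. The code was tested on simulated data. GENCODE vM21, on GRCm38 or mm10, gave loci for 22886 symbols, with 1-based coordinates. Small RNA genes were 689 genes of the small nucleolar, small nuclear, micro and related classes, to which Rmrp was added by name. Members and lists were chosen with earlier results of these data known. Named genes are the 6 highest and 6 lowest log2 fold changes, the 5 smallest p, paralogs and partners, stalk genes, 5 highest per length, 6 genes of known roles and 2 per related list; others were chosen after their values were seen. Some genes are not reported here by name, in the text or in figures, but are kept in all counts and medians over the members. Alternatives were filters, the pseudocount, weights, scalings, a covariate and left-out libraries.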

Additional observations from a re-analysis of the deposited data

Results flagged for a closer look

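Within each group of 4 libraries, 86 sets of values were screened with Dixon's test for 1 library far from the other 3. Chance alone meets it in about 1 set in 20, and 16 sets met it. The sets are values of genes named here and library measures, and are not the 86 members. Some of these genes were named for extreme fold changes or after their values were seen, so the 16 cannot be set against that rate. In 14 of the 16 sets the library was mutant 3382, which lay above the other mutants. Its values were 86.6 BPM for Rpl11, 19.4 for Rpl21, 10.7 for Rpl30, 16.4 for Rpl36a, 11.2 for Rpl37a, 24.6 for Rpl38 and 146 for Rpl39. They were 282 BPM for Rpl5, 774 for Rplp1, 873 for Rps14, 695 for Rps15, 26.6 for Rps27 and 91.4 for Rps3a1. The members' share of all bases in that library, 1.56%, met it as well. The members share 1 library, so these sets are not independent. In the controls, library 3401 stood apart with 24.0 BPM for Rpl21 and library 3587 with 918 BPM for Rplp1.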

How the results depend on the processing

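The count of 0 members past the threshold held under 18 of 19 alternatives, and was 2 with the small RNA covariate (Rps2 −1.24 and Rps18 −1.56). The members' median was negative under 18 alternatives, from −0.49 to −0.90 when 1 library was left out, and was 0.060 when each library was centred on these genes, which fixes it near 0. The median of all genes was 0.03 without small RNA in the totals, −0.02 after median scaling, −0.02 after quantile normalization, −0.08 without the 20 most abundant genes, 0.25 with the covariate and 0.44 when centred. Members with an unadjusted p under 0.05 numbered 15, but 33 with array weights, 7 without small RNA in the totals, 8 after median scaling, 1 when centred, and from 4 (without mutant 3387) to 56 (without mutant 3382), with 29 without control 3586, 6 without control 3587, 7 without mutant 3487, 8 without control 3401, control 3486 or mutant 3489, and 3 without mutants 3387 and 3487. With the small RNA covariate the fit called 490 genes over the whole table, against 14 without it. Of the results for single genes, 63 changed sign, none of them a called value, and their cause was not tested beyond the centring. When centred, Rpl10 was 0.41, Rpl11 0.052, Rpl22 0.13, Rpl22l1 0.48, Rpl29 0.56, Rpl3 0.32, Rpl31 0.55, Rpl32 0.17, Rpl35 0.66, Rpl36al 0.19, Rpl39 0.26, Rpl3l 0.33, Rpl5 0.22, Rpl7l1 0.30, Rplp2 0.24, Rps14 0.12, Rps19 0.030, Rps24 0.52, Rps27a 0.31, Rps27l 0.37, Rps4x 0.25, Rps4y2 0.039, Rps6 0.060 and Rpsa 0.089. With array weights Rpl21 was −0.32. After median scaling Rpl22l1 was 0.017, Rpl29 0.093, Rpl31 0.089, Rpl35 0.20 and Rps24 0.059. After quantile normalization Rpl10 was 0.024, Rpl22l1 0.11, Rpl29 0.046, Rpl35 0.31 and Rps24 0.14. With the covariate Rpl3 was 0.18, Rpl35 0.0051 and Rps4x 0.057. Without small RNA in the totals Rpl10 was 0.025, Rpl22l1 0.10, Rpl29 0.15, Rpl31 0.12, Rpl35 0.28 and Rps24 0.14. Without the 20 most abundant genes Rpl29 was 0.037, Rpl31 0.015, Rpl35 0.15 and Rps24 0.017. When 1 library was left out, Rpl29 ranged from −0.26 to 0.069, Rpl3 from −0.84 to 0.12, Rpl31 from −0.32 to 0.040, Rpl35 from −0.30 to 0.21 and Rpl37a from −0.11 to 0.45. Without mutants 3387 and 3487 Rpl3 was 0.43, Rpl31 0.074, Rpl35 0.11, Rplp2 0.12 and Rps4x 0.032. No paired analysis was possible because the replicate numbers are not shared between the groups.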
